A study of Mus musculus with 14 samples.

Results

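Core pluripotency factors are described here through 6 genes, *Pou5f1* (Oct4), *Sox2*, *Sall4*, *Zfp281*, *Utf1* and *Lin28a*, which were taken by name from a table of 23298 genes in 14 mouse embryonic stem (ES) cell lines. All 6 genes were found, and all 6 passed the filters on low values in every comparison. RNA was compared between lines with 2 X chromosomes (XX), lines labelled XY, and lines with a single X (XO), to ask whether the sex chromosomes or the direction of the cross go with differences in gene expression before differentiation.

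The lines were derived from F1 blastocysts of reciprocal crosses between C57BL/6J (B) and CAST/EiJ (C) mice, and the maternal strain is named first. Each line came from 1 blastocyst and each stands as 1 replicate, with 3 lines of BC XX, 3 of BC XY, 3 of CB XX, 3 of CB XY and 2 of BC XO. The XO lines arose during derivation in the BC cross, so that no CB XO group exists for comparison. All lines were early passage, were grown with serum and LIF on inactivated mouse embryonic fibroblasts (MEFs) as feeders, and passed through 2 consecutive MEF-depletion steps before total RNA was isolated. Reciprocal F1 lines carry the same autosomal alleles, but differ in which parent gave each allele, in their mitochondria and, in XY lines, in the strain of the X and the Y.

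Oct4, a POU domain factor, and Sox2, an HMG box factor, bind DNA side by side at a composite Sox-Oct element and together hold ES cells in the undifferentiated state, acting on their own genes as well as on others. Sall4 and Zfp281 are zinc finger proteins that share many of those sites and can recruit repressor complexes such as NuRD, and Utf1 is a chromatin-bound protein whose gene is a classical target of Oct4 and Sox2. Lin28a is an RNA-binding protein that keeps precursors of the microRNA let-7 from maturing. Some of these genes, such as *Pou5f1*, are known as marks of the undifferentiated ES cell and fall when it differentiates.

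The composite element is shown first, and 2 of the 6 genes hold its short form near their start. The letters CATTGTNATG, a Sox site, 1 free base and the first 3 bases of the octamer, were searched on both strands within 5 kb on each side of the gene start in the mm9 genome. A match was found for *Sox2* and *Utf1*, downstream of the gene in both, and for 8.17% of 20997 genes with a unique position. Each site is printed on the strand of the match, and the capitals mark the letters searched.
Sox2, chr3:34552963-34552988, + strand, 4048 bases from the gene start: cgggcagcCATTGTGATGcatatagg
Utf1, chr7:147131577-147131602, - strand, 1901 bases from the gene start: tgagccgtCATTGTTATGctagtgaa
The longer form CATTGTNATGCAAA was found near none of the 6 genes and near 0.0333% of all genes. A match describes letters of the reference genome and was not tied to binding in these cells. Whether it bears on any difference between the lines was not tested.

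The values are a scaled read signal per gene, which came in steps of 0.407 to 2.46 depending on the line. The lines sum to similar totals, from 2.82e+07 in BC XX 1 to 3.07e+07 in CB XX 1. Taking 1 step as 1 read, CB XY 2 holds 11904400 reads, the fewest, and BC XX 2 holds 69646400, the most. The lowest value of any of the 6 genes, *Utf1* in BC XX 3, is 375 reads. Counting error was therefore small beside the spread between lines. Differences were tested with limma on log2(value + 5), adjusted after Benjamini-Hochberg over every gene in the fit, at a threshold of 0.05. Fold changes on this scale hardly understate the change at the levels of these genes.

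Some lines stood apart and are named before the results. The Y-linked gene *Uty* had values of 945 to 2088 in the BC XY lines and 1149 in CB XY 1, but only 19.6 in the line labelled CB XY 2 and 45.4 in that labelled CB XY 3, both within the range of 12.8 to 195 in the XX lines. The X-linked gene *Rbbp7* had 12732 in CB XY 2 and 13333 in CB XY 3, beside 12893 in CB XY 1 and 20344 to 21473 in CB XX lines. Whether CB XY 2 and CB XY 3 hold a Y chromosome was not tested. The other 3 Y-linked genes divided the lines less clearly. In the CB cross *Ddx3y* had 1084.5 in CB XY 1, 27.0 in CB XY 2, 126 in CB XY 3 and 49.7 to 196 in XX lines. *Ddx3y* had 1115 to 2268 in BC XY and 328 to 1024 in BC XX lines, *Eif2s3y* had 40.8 to 255 and 102 to 317, and *Kdm5d* was higher in BC XX (36.9 to 123) than in BC XY lines (6.02 to 28.7), by a log2 fold change of 2.13 (adjusted p = 0.0407, limma), so that the BC XX lines hold some Y-linked RNA. A list of 25 fibroblast markers took up 0.376% to 0.732% of the signal in the BC XX lines, and 0.0342% to 0.142% in all other lines. Of the 25 markers, 16 were higher in each BC XX line than in every other line, and 1, *Fap*, was at 0 in some line. *Postn*, a matrix protein of fibroblasts, reached 3482 to 19281 in BC XX lines and 36.8 to 396 in the others. In such bulk RNA, fewer ES cells in a sample and less RNA per ES cell cannot be told apart. Results of the 6 genes that rest on CB XY 2 and CB XY 3 are given with and without them, and for the BC XX lines, which cannot be left out as a group, the fibroblast level was used as a covariate.

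Measured per kb of exon, *Pou5f1* was the most abundant of the 6 genes and *Zfp281* the least. The mean level over the 14 lines was 9971 ± 2093 (SD) for *Pou5f1*, 4892 ± 1744 for *Lin28a*, 3834 ± 1169 for *Sox2*, 2016 ± 676 for *Sall4*, 1771 ± 1238 for *Utf1* and 1165 ± 170 for *Zfp281* in signal per kb. *Pou5f1* was above *Lin28a* in 14 of 14 lines, and *Sox2* above *Sall4* in 14 of 14. The other neighbours in this order were not separated in every line, since *Lin28a* was above *Sox2* in 12 lines, *Sall4* above *Utf1* in 9 and *Utf1* above *Zfp281* in 8. *Pou5f1* ranked 127 among 20997 genes by level per kb, and with at least 10830 units of signal it was high in every line, as its label of ES cells calls for.

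The 6 genes also differed in how much they varied. From the lowest to the highest line, *Utf1* spanned 13.3-fold, *Lin28a* 4.11-fold, *Sall4* 2.75-fold, *Pou5f1* 2.71-fold, *Sox2* 2.30-fold and *Zfp281* 1.89-fold. Within groups, the SD of *Utf1* on the log2 scale was 0.64, above that of 98.1% of the genes at a like level. *Zfp281* had an SD of 0.22, above that of 51.4% of its like. Replicate lines thus spread most for *Utf1*.

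**Figure D1:**
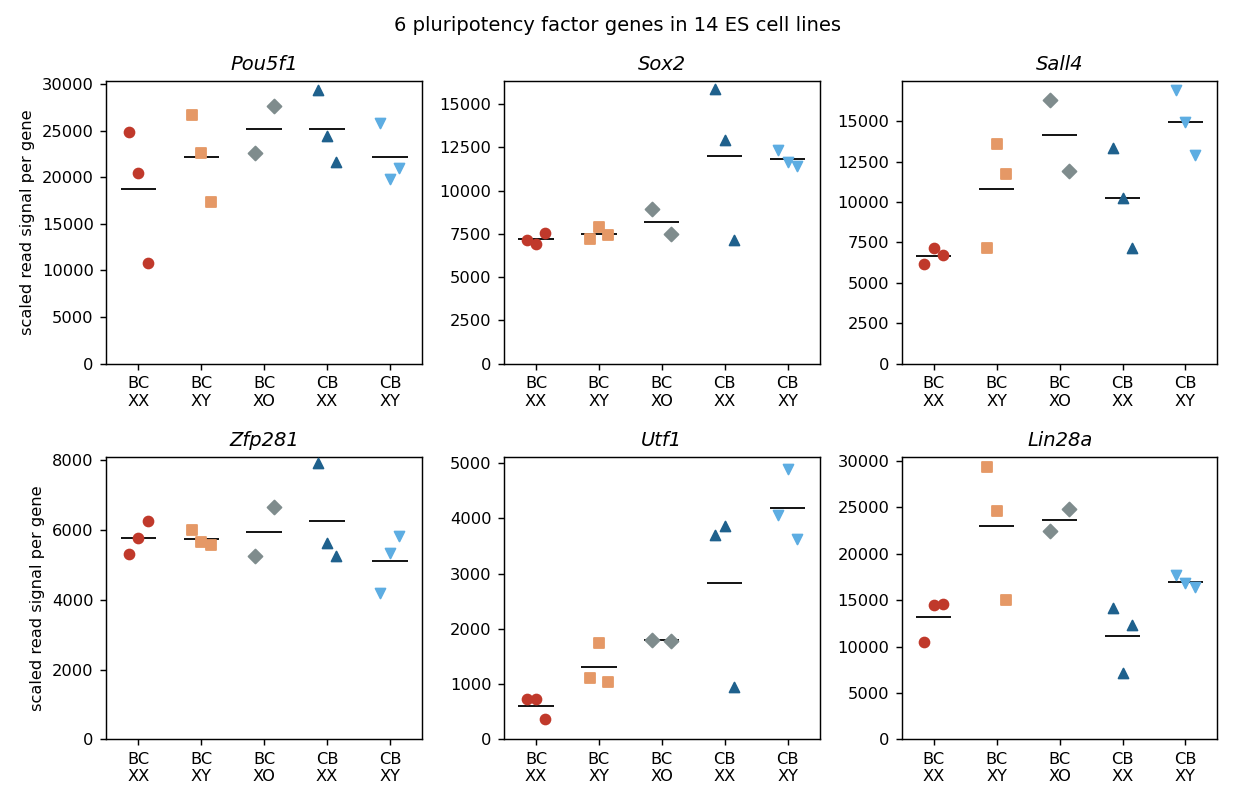
Scaled read signal of each gene (vertical axis, from 0) in the 14 lines (points) by group, with the group mean as a bar. *Sox2* and *Utf1* are high in 5 of the 6 CB lines, *Lin28a* is lower in each XX line than in each line labelled XY, and *Pou5f1* and *Zfp281* overlap between XX and XY lines.

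No member passed the test between all XX and all XY lines, where 5.21% of 15311 genes did (0 of 6, also with voom weights; 2 of 6 against 23.1% of genes at an unadjusted p of 0.05). *Lin28a* came closest. It had values of 10475, 14496 and 14576 in BC XX lines and 14126, 7131 and 12266 in CB XX lines. The lines labelled XY had values of 29319, 24569 and 14970 in the BC cross and 17728, 16822 and 16430 in the CB cross. The highest XX line was below the lowest XY line, which was so in 1 direction or the other for 3.52% of all genes tested.

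The mean of *Lin28a* was 12178 ± 2943 (SD, n = 6) in XX and 19973 ± 5675 (n = 6) in XY lines, with a log2 fold change of -0.71 ± 0.20 (SE) and a limma adjusted p of 0.0588. With the cross as a covariate the adjusted p was 0.0274, and in the model of all 5 groups 0.0215, both with the same fold change. When both lines labelled XY with *Uty* at the level of XX lines (CB XY 2, CB XY 3) were left out, it was -0.82 with an adjusted p of 0.102. Adding the mean fibroblast level of each line as a covariate gave -0.84 with an adjusted p of 0.10. The call thus depended on the model, while the direction was the same in all fits run.

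Within each cross the values of *Lin28a* did not overlap between XX and XY lines either, as held for 27.1% of all genes in BC lines and 23.2% in CB lines. BC XX lines differed from BC XY lines by -0.76 ± 0.26 on the log2 scale (adjusted p = 0.0978, limma), and CB XX from CB XY lines by -0.66 ± 0.26 (adjusted p = 0.185, limma). With CB XY 1 as the 1 CB XY line, whose spread the other groups supply, the latter was -0.72 (adjusted p = 0.478). The BC XO lines, at 22381 and 24777, lay within the range of the BC XY lines and above all BC XX lines, and for 47.2% of genes the BC XX and BC XO lines did not overlap. The difference of BC XX from BC XO was -0.85 ± 0.29 (adjusted p = 0.0944, limma).

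*Sall4* had low values in BC XX lines, 6153, 7166 and 6743. The BC XY lines had 7142, 13577 and 11748, the BC XO lines 16312 and 11938, the CB XX lines 13314, 10234 and 7155, and the CB XY lines 16936, 14930 and 12897. BC XX lines and BC XO lines did not overlap either, as was so for 47.2% of genes. BC XX and BC XY lines overlapped through BC XY 1. *Sall4* was lower in BC XX than in BC XO lines by 2.09-fold (log2 fold change -1.06, 95% interval -1.65 to -0.48, adjusted p = 0.0443, limma). It was the 1 member of 6 to pass in this comparison, where 4.66% of 16261 genes passed.

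That call was close to the threshold and held in 4 of 14 fits that left out 1 line. With the fibroblast level as a covariate the log2 difference was -0.57 with an adjusted p of 0.596, and without XO 1 it was -0.84 (adjusted p = 0.339) and without XO 2 -1.29 (adjusted p = 0.127). Each of these last fits has 1 XO line, which is assumed to vary like the other groups. Against XY lines of both crosses, *Sall4* in XX lines had a log2 fold change of -0.61 ± 0.22 (adjusted p = 0.121, limma). With the cross as a covariate the adjusted p was 0.0348 and in the model of 5 groups 0.0326, at the same fold change, so that this call too depended on the model. It was -0.53 (adjusted p = 0.328) without CB XY 2 and CB XY 3. In the BC cross it was -0.65 ± 0.25 and in the CB cross -0.58 ± 0.25 (adjusted p of 0.136 and 0.220, limma), and without the same lines -0.77 in the CB cross (adjusted p = 0.405). In the BC cross it was 0.00361 with the fibroblast covariate. The fibroblast level and the BC XX group cannot be told apart in these lines, since the 3 BC XX lines hold the 3 highest levels.

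**Figure D2:**
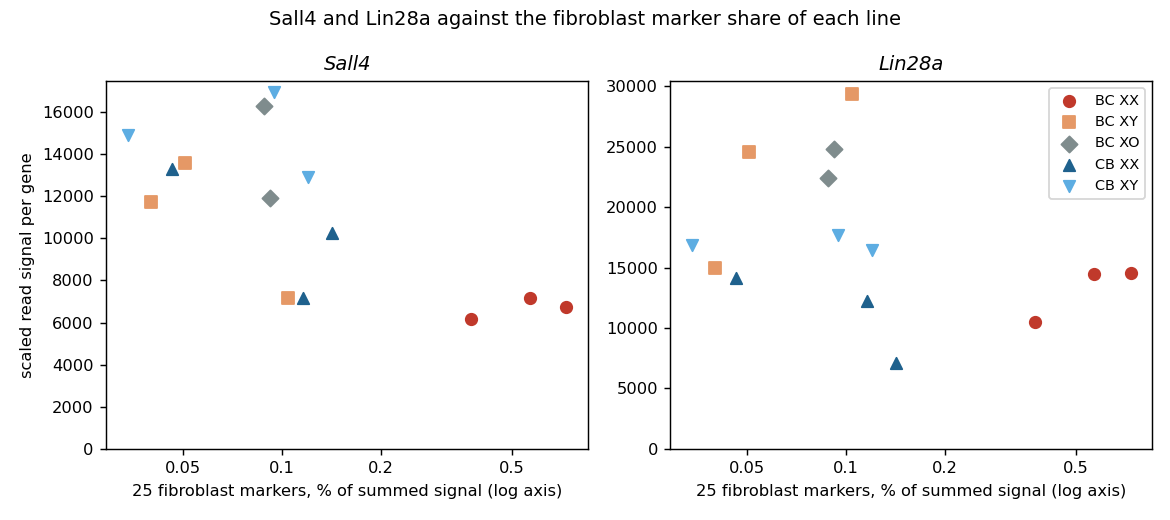
Scaled read signal of *Sall4* (left) and *Lin28a* (right) against the percent of each line's signal taken by 25 fibroblast markers (horizontal log axis), 1 point per line. The 3 BC XX lines stand alone at 0.376% to 0.732%, and the CB XX line with the lowest *Lin28a* is the highest of the other 11 lines, at 0.142%.

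*Utf1* showed the same order of groups within the BC cross at a lower level. It had values of 739, 727 and 368 in BC XX lines, 1117, 1750 and 1042 in BC XY lines and 1793 and 1789 in BC XO lines. The BC XX lines overlapped with neither, as was so for 27.1% and 47.2% of genes. The log2 fold change of BC XX against BC XY was -1.11 ± 0.43 (adjusted p = 0.141, limma) and against BC XO -1.61 ± 0.48 (adjusted p = 0.0673, limma). Without CB XX 3, whose group shares its spread with the rest in the model, the SE was 0.26 and 0.29 and the adjusted p 0.0258 and 0.0148. The fibroblast level as a covariate left -0.15 and -0.88, with adjusted p of 0.978 and 0.660. With each line's trend on the GC content of genes removed, as described below for the crosses, they were -0.78 and -1.02, with adjusted p of 0.121 and 0.0922. Over both crosses, XX against XY lines gave -0.96 ± 0.58 (adjusted p = 0.346, limma), and -0.52 (adjusted p = 0.735) without CB XY 2 and CB XY 3.

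*Pou5f1*, *Sox2* and *Zfp281* had small differences between XX and XY lines. *Pou5f1* averaged 21910 ± 6258 (SD, n = 6) in XX and 22201 ± 3595 in XY lines, a log2 fold change of -0.07 with a 95% interval of -0.50 to 0.37. That of *Sox2* was -0.06 (-0.55 to 0.44), and that of *Zfp281* was 0.14 (-0.12 to 0.41). As folds, the intervals run from 0.706 to 1.29 for *Pou5f1* and from 0.919 to 1.33 for *Zfp281*.

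Among the other contrasts by sex, 0 of 6 genes passed for BC XX against BC XY lines, where 5.70% of genes passed, and 0 of 6 for CB XX against CB XY lines, where 3.57% passed (limma; at an unadjusted p of 0.05, 3 of 6 against 23.1% of genes and 2 of 6 against 18.6%). For BC XO against BC XY lines 0 of 6 passed and 0.00615% of genes did (limma; 0 of 6 against 1.49% of genes at an unadjusted p of 0.05). A test of whether the difference of XX from XY lines itself differed between the crosses gave 0 of 6 genes and 0.0738% of all genes (limma; 0 of 6 against 9.05% of genes at an unadjusted p of 0.05). The interaction was 0.10 ± 0.36 on the log2 scale for *Lin28a* and 0.07 ± 0.35 for *Sall4*. With 2 or 3 lines a group, these intervals are wide. Voom weights also gave 0 of 6 in these 4 comparisons.

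**Figure D3:**
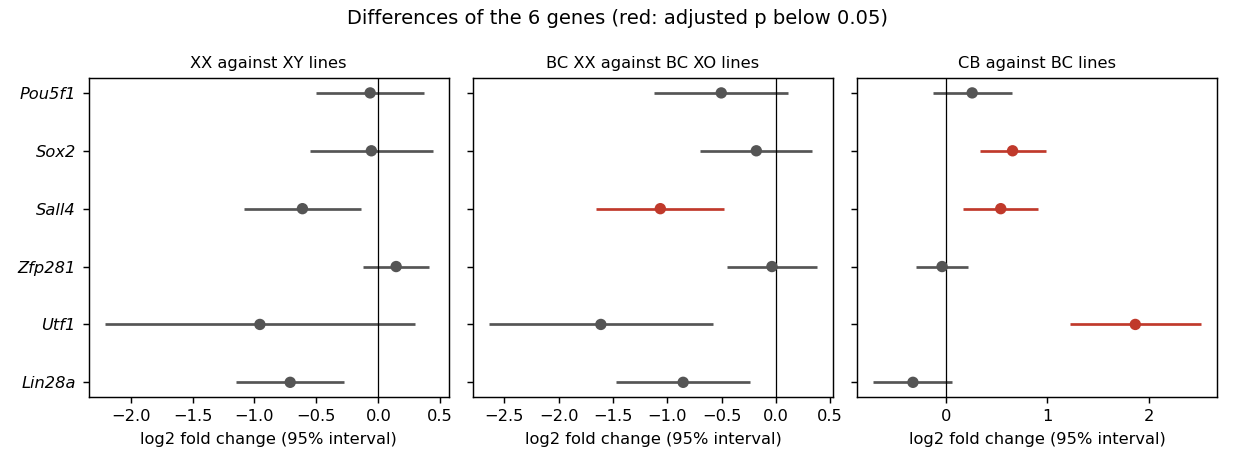
Log2 fold change (horizontal axis, point) and 95% interval (line) of the 6 genes in 3 comparisons, with red for an adjusted p below 0.05. *Sall4* passes between BC XX and BC XO lines, and *Sox2*, *Sall4* and *Utf1* between the crosses.

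The clearest differences were between the crosses. The paper states that libraries were made in batches, but the batch of each line is not given in the sources used here. Taking 1 step as 1 read, the CB lines hold 1.19e+07 to 3.20e+07 reads and the BC lines 2.41e+07 to 6.96e+07. Cross was therefore not separated from batch or read number, and their part in these differences was not tested. *Utf1*, *Sox2* and *Sall4* were higher in CB than in BC lines, 3 of 6 genes against 16.0% of 16261 genes called, 9.22% higher and 6.80% lower. In CB lines *Utf1* had values of 4065, 4888 and 3627 in XY lines and 3700, 3854 and 955 in XX lines, whereas the highest of the 6 BC XX and XY lines was 1750. Thus 5 of 6 CB lines were above every BC XX and XY line, as held in at least 5 lines for 7.10% of genes, and CB XX 3 was within the BC range. *Utf1* was 3.65-fold higher in CB lines (log2 fold change 1.87 ± 0.30, 95% interval 1.22 to 2.52, adjusted p = 0.00327, limma).

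*Sox2* divided the lines in the same way. It had values of 12344, 11661 and 11422 in CB XY lines and 15878, 12939 and 7119 in CB XX lines. All 8 BC lines lay between 6913 and 8924. It was 1.57-fold higher in CB lines (log2 fold change 0.66 ± 0.15, adjusted p = 0.0139, limma). Without CB XX 3 the log2 fold change was 0.82 for *Sox2* (adjusted p = 0.000137, limma) and 2.20 for *Utf1* (adjusted p = 1.85e-05, limma).

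*Sall4* was 1.45-fold higher in CB lines (log2 fold change 0.54 ± 0.17, adjusted p = 0.0489, limma), and 2 of 6 CB lines were above every BC XX and XY line, as held in at least 2 lines for 31.1% of genes. This call held in 2 of 14 fits that left out 1 line, while those of *Utf1* and *Sox2* held in all 14. *Pou5f1* had a log2 fold change of 0.26 ± 0.18 (adjusted p = 0.348), *Zfp281* of -0.04 ± 0.12 (adjusted p = 0.839) and *Lin28a* of -0.33 ± 0.18 (adjusted p = 0.223, limma). *Sox2* and *Utf1* thus differed between the crosses while their partner *Pou5f1* showed an interval of -0.13 to 0.65.

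A measured property of the lines, the level of GC-rich genes, moved with this difference. The exons of *Utf1* are 63.5% G and C, above those of 99.0% of genes, against a median of 49.1%, and the other 5 genes lie between 43.1% (*Zfp281*) and 54.7% (*Pou5f1*). The 5% of genes with the highest GC content deviated from their mean over the lines by a median of 0.33 to 0.76 on the log2 scale in 5 CB lines. In CB XX 3 they deviated by -0.25, in the BC XX and XY lines by -0.98 to -0.16, and in the XO lines by 0.12 and -0.06. With each line's trend on GC content removed, the log2 fold change of *Utf1* between the crosses was 0.96 ± 0.20 (adjusted p = 0.0141, limma), that of *Sox2* 0.59 ± 0.15 (adjusted p = 0.0288) and that of *Sall4* 0.38 ± 0.16 (adjusted p = 0.164). Whether the trend comes from the libraries or from the cells was not tested.

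**Figure D4:**
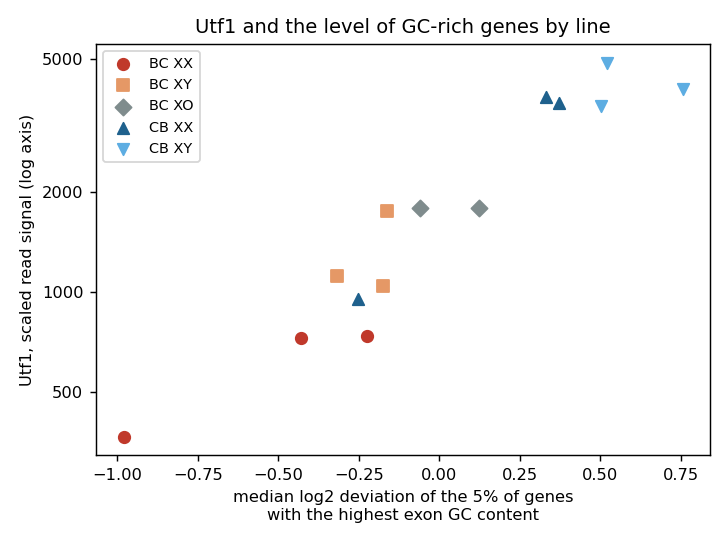
*Utf1* signal (vertical log axis) against the median log2 deviation of the 5% of genes with the highest exon GC content (horizontal axis), 1 point per line. The 5 CB lines with high *Utf1* are the 5 lines with the highest level of GC-rich genes, and CB XX 3 lies among the BC lines on both axes.

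The fibroblast level bore on the cross as well, because the BC XX lines hold most of it. As a covariate it left *Utf1* at 1.59 ± 0.33 (adjusted p = 0.0254, limma), *Sox2* at 0.55 ± 0.18 (adjusted p = 0.0999) and *Sall4* at 0.35 ± 0.19 (adjusted p = 0.294). With the GC trend removed and the covariate together, *Utf1* was at 0.80 ± 0.23 with an adjusted p of 0.0938. With CB XY 2 and CB XY 3 left out, *Utf1* was at 1.85 (adjusted p = 0.0360) *Sox2* at 0.69 (adjusted p = 0.0766) and *Sall4* at 0.63 (adjusted p = 0.115, limma).

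**Figure D5:**
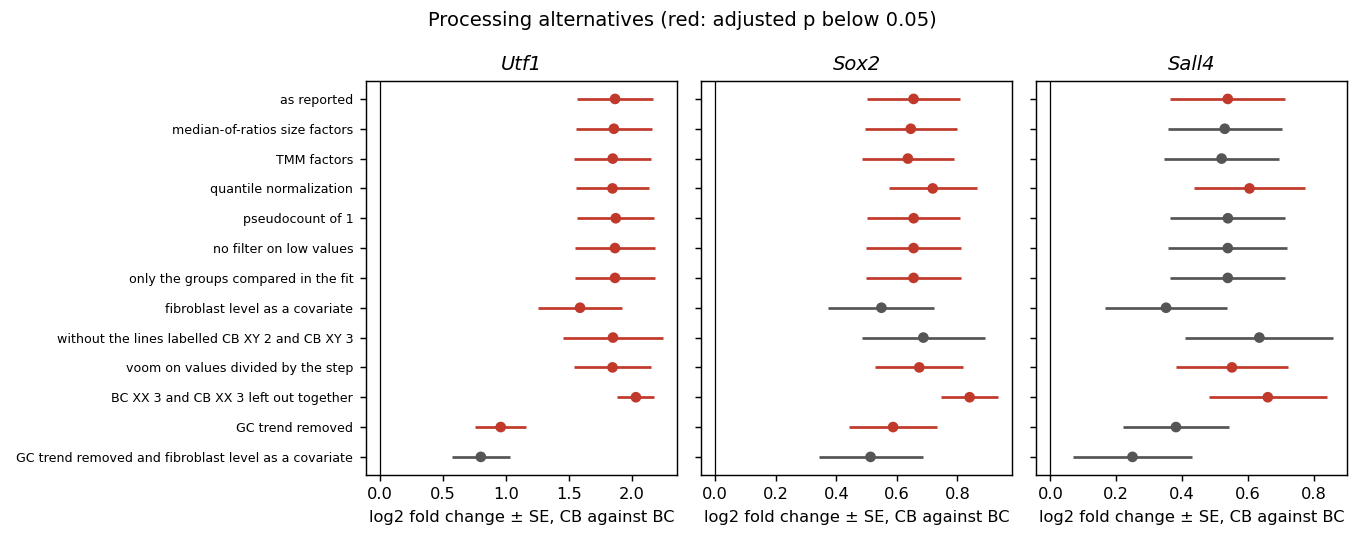
Log2 fold change of CB against BC lines (horizontal axis, point) with its SE (line) for *Utf1*, *Sox2* and *Sall4* under each way of processing (rows), with red for an adjusted p below 0.05. All values are above 0, and that of *Utf1* drops from 1.87 to 0.96 when the GC trend is removed.

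Genes around the members were read for comparison. Of 12 known targets of the core factors, 3 were higher in CB lines, where 9.22% of all genes were, and the other 9 did not pass, with a list median of 0.18 against -0.01 for all genes on the log2 scale. *Klf4*, a reprogramming factor, was 1.83-fold higher (adjusted p = 0.0276, limma), *Nr0b1*, an X-linked repressor known as Dax1, 1.53-fold (adjusted p = 0.0446), and *Esrrb*, a nuclear receptor of the pluripotency network that was named after its value was seen, 1.51-fold (adjusted p = 0.0474). None of the 12 passed in any comparison of XX, XY and XO lines (limma; 0 or 1 of 12 at an unadjusted p of 0.05 in each). *Nanog*, the homeodomain partner of the core factors, was at 0.03 ± 0.22 between XX and XY lines and 0.36 ± 0.19 between crosses.

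Paralogs of the members, which share a DNA- or RNA-binding domain with them, were 10 in number. Of these, *Sox3* on the X chromosome (1.80-fold, adjusted p = 0.0348, limma) and *Sall1* (1.56-fold, adjusted p = 0.0198) were higher in CB lines, against 9.22% of all genes. *Sox3* had 291, 108 and 109 in CB XY lines, against 38.8 to 72.3 in BC XY lines. In XX lines its values overlapped, with 62.1 to 69.3 in the CB and 52.1 to 69.6 in the BC cross. None of the 10 passed between XX and XY lines (limma; 1 of 10 at an unadjusted p of 0.05). *Lin28b*, the paralog of *Lin28a* that also blocks let-7, had a log2 fold change of -0.27 ± 0.24 between XX and XY lines.

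In the list of 12 genes around Lin28 and let-7, *Mycn*, a proto-oncogene and let-7 target, was the 1 gene called between XX and XY lines. It was 1.67-fold lower in XX lines (log2 fold change -0.74 ± 0.16, adjusted p = 0.0197, limma; 0.0774 without CB XY 2 and CB XY 3), where 1.99% of all genes were lower and 3.21% higher, and 1.88-fold lower in BC XX than in BC XY lines (adjusted p = 0.0235). *Igf2bp1*, an RNA-binding protein and let-7 target, was 1.69-fold lower in BC XX than in BC XO lines (adjusted p = 0.0317, limma). *Trim71*, a let-7 target that guards the undifferentiated state, was 1.79-fold higher in CB than in BC lines (adjusted p = 0.0127, limma). The 11 other genes of the list did not pass between XX and XY lines, and the list median was -0.21 there. No gene of this list passed between CB XX and CB XY lines (limma; 2 of 12 at an unadjusted p of 0.05).

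NuRD, the repressor complex that Sall4 and Zfp281 recruit, was represented by 13 subunits. *Rbbp7*, an X-linked histone-binding subunit, was higher in XX lines, by 1.47-fold over all lines (adjusted p = 0.00219, limma). The other 12 did not pass. In BC XX against BC XO lines, 261 of 16261 genes were lower. *Mbd3*, the subunit that holds the complex together, was 2.90-fold lower there (adjusted p = 0.0231, limma), and *Gatad2a* 1.99-fold lower (adjusted p = 0.0215). Both were higher in CB than in BC lines, by 1.60-fold and 1.51-fold, and *Mbd2* was 1.55-fold lower (adjusted p = 0.0375, 0.00935 and 0.0244, limma), so 3 of 13 subunits passed where 16.0% of all genes did.

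Markers of other cells moved with these groups. Of the 25 fibroblast markers 18 were higher in BC XX than in BC XY lines, against 726 of all 16261 genes. Compared with BC XO lines 11 were higher, against 497 of 16261 genes. In CB lines 7 were lower than in BC lines, against 6.80% of all genes. *Postn* was 67.3-fold and *Col5a2* 27.8-fold higher in BC XX than in BC XY lines (limma, adjusted p = 0.000993 and 0.00384). Between CB XX and CB XY lines 0 of 25 passed (limma; 0 of 25 at an unadjusted p of 0.05). Of 10 primitive endoderm markers, 2 collagen genes, *Col4a1* and *Col4a2*, which fibroblasts also make, were higher in BC XX lines. *Lama1* was 1.93-fold lower in XX lines overall (adjusted p = 0.0392, limma; 0.160 without CB XY 2 and CB XY 3). *Foxa2* was 4.40-fold and *Lamb1* 1.81-fold lower in CB XX than in CB XY lines (adjusted p = 0.0383 and 0.0210, limma). *Foxa2* values were low, at 14.2, 8.53 and 37.3 in CB XX lines, where 1 step is 0.889 to 1.42. The CB XY lines had 182, 31.9 and 131, so the groups overlapped through CB XY 2. With CB XY 1 as the 1 CB XY line, a fit that cannot check these calls, the log2 fold changes of *Foxa2* and *Lamb1* were -3.07 and -0.82, against -2.14 and -0.86. In CB lines 4 of the 10 were lower, against 6.80% of all genes, led by *Gata6* at 3.15-fold (adjusted p = 0.0109, limma). *Gata6* was low too, with 8.53 to 41.8 in CB XX and 31.9 to 168 in CB XY lines. It had 145 to 243 in BC XX and 85.0 to 140 in BC XY lines. Of the 10 genes of these lists named as different between the crosses without being fibroblast markers, *Sox3* (adjusted p = 0.0277, limma) and *Gatad2a* (adjusted p = 0.0372) passed without CB XY 2 and CB XY 3, and the other 8 did not. The part of other cells in the differences of the 6 genes was not tested.

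How far the 6 genes moved with each other over the 14 lines is given as a description, since the lines share crosses, groups and GC trends. Pearson's r of the log2 values was 0.85 for *Sox2* and *Utf1*, 0.79 for *Sall4* and *Utf1* and 0.62 for *Sox2* and *Sall4*. *Pou5f1* had 0.55 with *Utf1*, 0.32 with *Sox2* and 0.28 with *Sall4*. *Lin28a* had -0.01 with *Utf1*, -0.28 with *Sox2*, 0.31 with *Sall4* and 0.14 with *Pou5f1*. *Zfp281* lay between -0.16 and 0.10 with every other member.

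The genes most like each member among 11323 were found by the same measure. For *Utf1* they were *Dennd4b*, *2310003H01Rik* and *Fbxl18* (r of 0.97 for each), and for *Sox2* they were *H2afx*, *Acbd6* and *E130012A19Rik* (0.96, 0.95 and 0.95). For *Sall4* they were *Foxk1*, *Mark2* and *Rnf44* (0.98, 0.97 and 0.97), and for *Pou5f1* *Aurkaip1*, *Park7* and *Dhx30* (0.97, 0.97 and 0.96). All 12 of these lay above the middle of the GC range, at percentiles 66.2 to 99.7. The nearest genes of *Lin28a* were *Chd4*, the NuRD remodelling ATPase, *Tmpo* and *Nabp2* (0.93, 0.92 and 0.92), and those of *Zfp281* were *Nuf2*, *Bivm* and *Tfam* (0.88, 0.87 and 0.84), which lay at GC percentiles 17.2 to 31.7.

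On the chromosomes, *Pou5f1* lies at chr17:35642982-35647721, *Zfp281* at chr1:138521478-138526630 and *Utf1* at chr7:147129688-147131011, all on the + strand of mm9. *Sox2* at chr3:34548927-34551383 lies inside the long noncoding gene *Sox2ot* on the same strand, so reads of the 2 genes cannot always be told apart. *Sall4* at chr2:168573832-168593443 and *Lin28a* at chr4:133559245-133574756 are on the - strand and overlap the opposite-strand RNAs *Gm14261* and *Gm13061*, and the libraries keep strand. Within 500 kb of *Lin28a*, 3 of 25 other genes tested were lower and 0 higher in XX lines, against 1.99% and 3.21% of all genes. Near *Utf1*, 3 of 13 were higher in CB lines and 0 lower, near *Sall4* 2 of 5, and near *Sox2* 0 of 1, against 9.22% of all genes higher. Members not called between the crosses also had such neighbours. Near *Pou5f1* 12 of 50 were higher and 1 lower, near *Lin28a* 7 of 27 higher and 1 lower, and near *Zfp281* 0 of 8 either way.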

How the data were processed

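RNA of 14 lines was sequenced as stranded total RNA with single-end reads. The authors aligned reads to mm9 with TopHat2 and used Cufflinks and Cuffdiff; versions and the annotation are not given in the sources used here. The values as deposited are a scaled read signal per gene. Between 98.9% and 99.2% of values up to 50 steps were whole multiples of a step (within 0.1 of a step), but reads could not be recovered, so no read-count test was run.

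Values were compared as log2(value + 5) with limma 3.58.1 (trended variance, R 4.3.3), with an FDR of 0.05. XX and XY lines (12 lines) were fitted without a term for cross, keeping genes with a value of 10 or more in 6 lines. Other contrasts came from 1 model of 5 groups over 14 lines, keeping genes with 10 or more in 2 lines. A further 15 genes were dropped because all lines of some group had 0 while another line had 100 or more. CB XX lines are numbered by column order, because 3 columns could be tied to the group but not to a line. Replicates are separate lines. Positions and exon GC content came from NCBIM37 (mm9) with GENCODE vM1, and 20997 genes were placed once. Trends on GC content were lowess fits per line. Scripts were tested on simulated data. Alternatives are listed after the report.

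Members and gene lists were chosen with earlier results of these data known. Named genes are the members, up to 2 higher and 2 lower genes of each list per comparison with the largest fold change past the threshold, the 3 genes most like each member (mean value of 100 or more), and Y-linked genes. *Nanog*, *Lin28b* and *Esrrb* fall outside this rule and were named after their values were seen.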

Additional observations from a re-analysis of the deposited data

Results flagged for a closer look

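Among the 6 XX lines, *Pou5f1* in BC XX 3 (10830) lay apart from the next line (20412), with a gap of 0.635 of the whole range of log2 values. Among the 6 lines labelled XY, *Zfp281* in CB XY 1 (4187) lay below the others, with a gap of 0.676 of the range. Of 12 groups of values examined, 2 were marked in this way, and chance marks about 1 in 20. Without BC XX 3 the log2 fold change of *Pou5f1* between BC XX and BC XY lines was 0.04 in place of -0.31, and neither value passed the test.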

How the results depend on the processing

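Of 188 counts of members called under another setting, 157 stayed within 1.5 times the count given in the report and 31 did not. Between XX and XY lines, where 0 of 6 were called, quantile normalization gave 1 (*Lin28a*), and the cross as a covariate and the model of all 5 groups gave 2 each (*Sall4* and *Lin28a*). Over all genes these fits called, in the same order, 826 of 15311, 1697 of 15311 and 2179 of 15432, against 797 of 15311 as reported. Leaving out 1 line gave 0 to 2, with 2 without CB XX 1 (1709 of 15232 genes in all) and 1 without BC XY 1 (1007 of 15251). Between BC XX and BC XY lines leaving out 1 line gave 0 to 1, with 1 without BC XY 1 (*Sall4*), BC XY 3 (*Lin28a*) or CB XX 3 (*Utf1*). Between BC XX and BC XO lines, where 1 was called, an FDR of 0.01, no filter on low values, the fibroblast covariate, the GC trend removed, and both of these together gave 0, the 5 BC lines alone gave 3, and leaving out 1 line gave 0 to 2. Between the crosses, where 3 were called, an FDR of 0.01, the fibroblast covariate and leaving out CB XY 2 and CB XY 3 each gave 1 (*Utf1*), the GC trend removed together with the covariate gave 0, and leaving out 1 line gave 2 to 3. *Sall4* between BC XX and BC XY lines turned from -0.65 to 0.00361 on the log2 scale with the fibroblast covariate. The cause of these changes was not tested.

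Same-numbered BC XX and BC XY lines deviated from their group means with Pearson's r of -0.17, 0.25 and -0.05 across 16261 genes. Same-numbered pairs with a BC XO line ran from -0.49 to 0.13. So few pairs, in groups whose deviations cancel, cannot show whether the numbers pair the lines. A replicate block on the number in the BC lines gave 1 member (*Utf1*, adjusted p = 0.0420, limma) between BC XX and BC XY lines and 0 between BC XX and BC XO lines (*Sall4* at -1.11, adjusted p = 0.124), with 505 and 13 genes called in all against 927 and 758. CB XX columns carry no number of a line, so no block was possible there.

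At an FDR of 0.05, the number of genes called over the whole table ranged from 297 to 2179 for XX against XY lines (797 as reported), from 7 to 1222 for BC XX against BC XY (927), from 133 to 756 for CB XX against CB XY (581), from 5 (without BC XO 1) to 1093 for BC XX against BC XO (758), from 0 to 4 for BC XO against BC XY (1), from 288 to 3656 for CB against BC lines (2605) and from 0 to 25 for the interaction (12). At an FDR of 0.01 the counts in the same order were 183, 195, 114, 37, 0, 545 and 0. Of 1086 log2 fold changes of the 6 genes under other settings, 80 changed sign, and 0 of these passed the threshold in either fit. The read-count test planned was not run, because whole reads could not be recovered. The voom fit, the GC correction and its fit with the covariate, and the fit without BC XX 3 and CB XX 3 were chosen after seeing the data. The 6 genes were well covered by reads, and a difference that missed the threshold is not shown to be absent.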
